A study of Cynoglossus semilaevis with 6 samples.

Results

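Transcripts of 8 skeletal muscle genes were followed through the liver libraries of female tongue sole (*Cynoglossus semilaevis*), out of 34751 annotated features in the expression table. The genes were chosen by their RefSeq transcript: *mylz3* (XM_008325001.1), *mylpfa* (XM_008329345.1), *acta1b* (XM_008309886.1), *acta1a* (XM_008317202.1), *actn3b* (XM_008320854.1), *ttn.1* (XM_008328982.1), *ckma* (XM_008332508.1) and *casq1b* (XM_008318461.1). The first 6 encode parts of the contractile apparatus, whereas *ckma* encodes an enzyme and *casq1b* a calcium-binding protein of the calcium store, so the set is wider than contractile genes alone. The members are fixed by transcript name with no threshold on a measured value, but they were proposed with earlier results of these data known.

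The LS_L group was kept at 15 ppt and the HS_L group, at the usual rearing salinity, at 30 ppt, each for 60 days. The LS_L group had 3 libraries and the HS_L group had 3 libraries, and each library came from the pooled livers of 3 females of 1 tank. All fish had been reared for 10 months at 30 ppt before the trial, and the fish of LS_L were brought down to the lower salinity in daily steps. A pool averages its fish, so a muscle transcript in 1 library cannot be traced to 1 liver.

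Muscle fibers contract when myosin heads, carried by heavy chains with regulatory and essential light chains, pull on thin filaments of alpha-actin. Alpha-actinin anchors those filaments at the Z-disc, and titin spans from the Z-disc to the middle of the sarcomere. Calsequestrin buffers the calcium that the sarcoplasmic reticulum releases to start contraction, and muscle creatine kinase regenerates the ATP that contraction spends. Hepatocytes do not build sarcomeres, so these genes are not part of the usual program of the liver.

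Between 16176689 and 19428741 reads per library could be recovered from the deposited values, and levels are given as normalized reads (reads divided by the size factor of the library) or, between genes, as scaled RPKM (normalized reads per kilobase of transcript, brought to RPKM size). The liver label was borne out by the hepatocyte list, whose summed scaled RPKM was 60615 to 125037 in LS_L and 80159 to 158561 in HS_L. The exocrine pancreas list differed far more between libraries, from 26.6 to 157.7 in LS_L and from 102.4 to 4315 in HS_L. No sequencing batch or extraction date is given in the labels.

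Transcripts of muscle were scarce in liver and varied from pool to pool within each salinity. Together, *mylz3*, *mylpfa*, *acta1b*, *acta1a*, *actn3b* and *ckma* had 1075 reads in LS_L_1, 11 in LS_L_2 and 8 in LS_L_3, against 1588 in HS_L_1, 1043 in HS_L_2 and 88 in HS_L_3. Scaled to the size of the library, these were 62.1, 0.597 and 0.412 RPM in LS_L and 98.2, 54.5 and 4.84 RPM in HS_L. Each salinity therefore had pools with many muscle reads and pools with few. In bulk RNA, fewer muscle cells and less muscle RNA per cell cannot be told apart.

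Of the 8 genes, these 6 had their 3 highest libraries in LS_L_1, HS_L_1 and HS_L_2, and *ttn.1* and *casq1b* did not. Among the 9270 features tested, 4.68% had each of these 3 libraries above the other 3. The order was noticed in these data and is given as a description. The 6 genes were grouped by it, here and in the sums above, so their sharing it is no separate result.

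**Figure D1:**
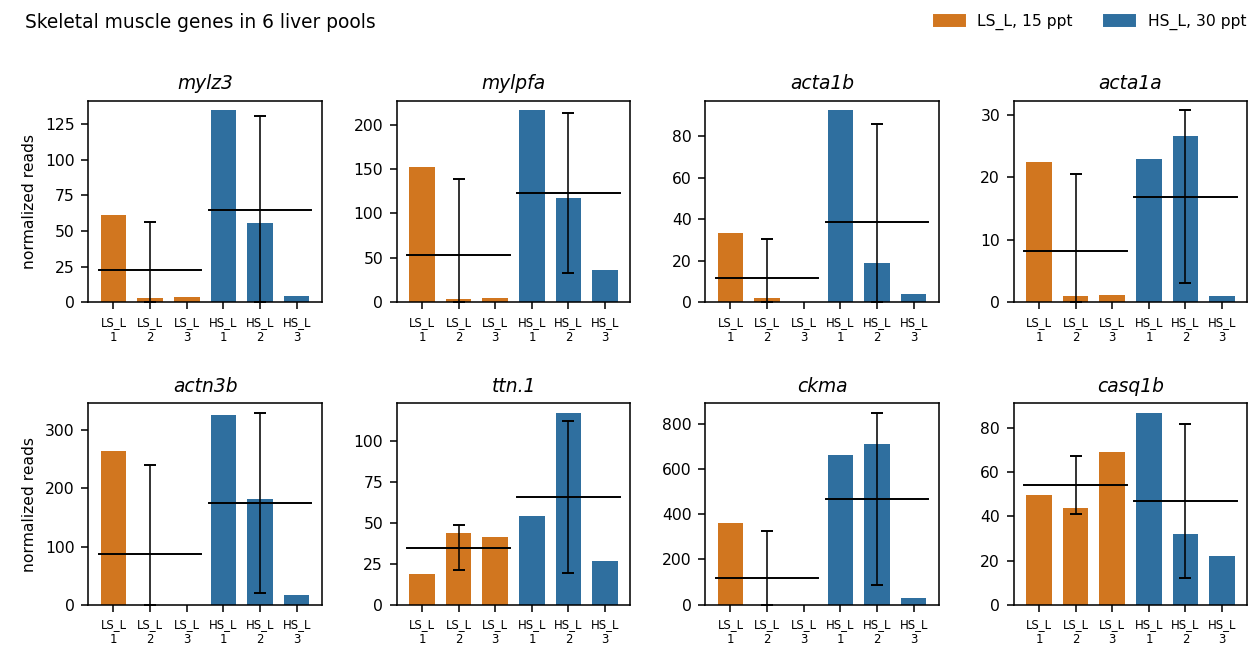
Normalized reads (vertical axis, linear from 0) of the 8 genes in each liver pool, with LS_L (15 ppt, orange) left of HS_L (30 ppt, blue). Bars are single libraries, black lines are group means and whiskers are 1 SD (n = 3 per group, drawn down to 0 at most). In 6 panels the bars of LS_L_1, HS_L_1 and HS_L_2 stand above the other 3 libraries, while *ttn.1* and *casq1b* do not have this order.

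The myosin light chains were read first. The *mylz3* transcript (Cse_v1.0, chromosome 14, 11161010 to 11164427, plus strand) encodes a fast-muscle essential light chain, as known from zebrafish. It had 61.4, 3.0 and 3.5 normalized reads in LS_L_1, LS_L_2 and LS_L_3, against 134.5, 55.5 and 4.2 in HS_L_1, HS_L_2 and HS_L_3. The groups overlapped, since LS_L_1 lay above HS_L_2 and HS_L_3. The lowest library, LS_L_2 with 3 reads, and the highest, HS_L_1 with 147, differed in normalized reads by a ratio of 44.8 (95% exact counting interval 15.0 to 219.8). Intervals of this kind cover counting error only.

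The fast regulatory light chain gene *mylpfa* (chromosome 17, 3235417 to 3238937, minus strand) had 151.9, 4.0 and 4.6 normalized reads in LS_L, against 215.9, 117.3 and 36.1 in HS_L. It was the only one of the light chains and actins with more than 10 reads in HS_L_3, where 34 reads were recovered. Its groups overlapped through LS_L_1, which ranked second of the 6 libraries. Among the 8 genes *mylpfa* had the second highest mean level, 2.51 ± 3.99 scaled RPKM in LS_L and 5.77 ± 4.22 in HS_L (SD, n = 3 each).

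The skeletal alpha-actins, the thin filament proteins, were lower. The *acta1b* transcript (chromosome 5, 472160 to 475488, plus strand) had 33.2, 2.0 and 0 normalized reads in LS_L, against 92.4, 19.2 and 4.2 in HS_L. The *acta1a* transcript (chromosome 9, 11100250 to 11105069, plus strand) had 22.4, 1.0 and 1.2 in LS_L, against 22.9, 26.7 and 1.1 in HS_L. For *acta1a* LS_L_1, HS_L_1 and HS_L_2 had 27, 25 and 25 reads and the other 3 pools 1 read each, whereas *acta1b* in HS_L_1 stood well above its other libraries. The actin genes are near-identical in their coding sequence and reads mapping to several places had been discarded, so both actin levels are uncertain. In addition, *acta1a* shares its locus with a second transcript (XM_008317204.1) that has 0 reads in the 6 libraries, and reads lying in the stretch they share were not counted for either.

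The *actn3b* transcript (chromosome 1, 23282018 to 23305920, minus strand), for the fast-fiber alpha-actinin of the Z-disc, had no read in 2 of the 6 pools. It had 264, 0 and 0 normalized reads in LS_L, against 325.7, 182.4 and 17.0 in HS_L. The 318 reads of LS_L_1 and the 0 reads of LS_L_2 and LS_L_3 came from pools kept at the same salinity. Taken at a floor of 3 reads, the level in LS_L_2 was at least 108.5-fold lower than in HS_L_1, a limit without a counting interval.

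Titin gave a different picture. The *ttn.1* transcript (chromosome 16, 15947822 to 16079635, plus strand), whose name was matched by position only, had 19.1, 44.0 and 41.5 normalized reads in LS_L, against 54.0, 117.3 and 26.5 in HS_L. Thus LS_L_1, a pool rich in the other sarcomere transcripts, was the lowest of the 6 for titin. Spread over a transcript of 83427 bases, these reads gave between 0.013 and 0.077 scaled RPKM in single libraries, the lowest levels of the 8 genes in each library where the others were read.

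Muscle creatine kinase, *ckma* (chromosome 19, 5924086 to 5927266, minus strand), was the most abundant of the 8 genes. It had 359.5, 1.0 and 0 normalized reads in LS_L, against 661.5, 711.4 and 30.8 in HS_L. Taken at a floor of 3 reads, the level in LS_L_3 was at least 205.7-fold lower than in HS_L_2, again without a counting interval. Per length *ckma* had 4.18 ± 7.21 scaled RPKM in LS_L and 16.3 ± 13.2 in HS_L (SD, n = 3 each). In HS_L_1, 93.0% of the features with a read lay below it, and in LS_L_2, where it had 1 read, only 7.59% did. The spread within the groups was about as large as the group means or larger.

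Calsequestrin, *casq1b* (chromosome 1, 20593915 to 20607321, minus strand), was read in every pool. It had 49.8, 44.0 and 69.2 normalized reads in LS_L, against 86.9, 32.0 and 22.3 in HS_L. In LS_L_3 it had 60 reads although the 6 genes above had 8 reads together. Its highest and lowest libraries were both in HS_L and differed by a ratio of 3.90 (95% exact counting interval 2.41 to 6.59), the narrowest range of the 8 genes. Its level was 1.43 ± 0.35 scaled RPKM in LS_L and 1.24 ± 0.92 in HS_L (SD, n = 3 each).

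Over the 6 libraries, the log2 level of each of *mylz3*, *actn3b*, *ckma*, *acta1b*, *acta1a* and *mylpfa* had a Pearson correlation of 0.89 to 0.99 with the mean profile of the other 7 genes (n = 6 libraries, a description). The correlation was 0.28 for *ttn.1* and 0.27 for *casq1b*. The points share their libraries and depth.

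The make-up of the muscle reads was compared within pools, where scaling between libraries plays no part. Of the reads of the 6 genes, *ckma* held 40.3% in LS_L_1 (95% exact binomial interval 37.3 to 43.3), against 45.5% in HS_L_1 (43.1 to 48.0), 64.0% in HS_L_2 (61.0 to 66.9) and 33.0% in HS_L_3 (23.3 to 43.8). The share in HS_L_2 therefore stood outside the counting intervals of the other 3 pools. For *actn3b* the share was 29.6% in LS_L_1 (26.9 to 32.4), against 22.4% in HS_L_1 (20.4 to 24.6), 16.4% in HS_L_2 (14.2 to 18.8) and 18.2% in HS_L_3 (10.8 to 27.8). With 11 reads in LS_L_2 and 8 in LS_L_3, no make-up could be read there.

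As a ratio, *ckma* had 1.36 reads for each read of *actn3b* in LS_L_1 (95% exact counting interval 1.18 to 1.58), against 2.03 in HS_L_1 (1.79 to 2.31) and 3.90 in HS_L_2 (3.29 to 4.64). In HS_L_3 the ratio was 1.81 (0.95 to 3.57), and its interval overlapped each of the other 3. The 2 light chains had 2.47 reads of *mylpfa* per read of *mylz3* in LS_L_1 (1.88 to 3.29), against 1.61 in HS_L_1 (1.3 to 1.99), 2.12 in HS_L_2 (1.51 to 3.00) and 8.50 in HS_L_3 (3.03 to 33.0). The proportions thus differed between pools beyond counting error, and the high ratio of HS_L_3 rests on only 4 reads of *mylz3*.

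The actin pair also changed between pools. *acta1b* had 1.48 reads per read of *acta1a* in LS_L_1 (95% exact counting interval 0.89 to 2.51), against 4.04 in HS_L_1 (2.59 to 6.54) and 0.72 in HS_L_2 (0.37 to 1.37). The intervals of HS_L_1 and HS_L_2 did not overlap, and these are pools of 1 salinity.

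**Figure D2:**
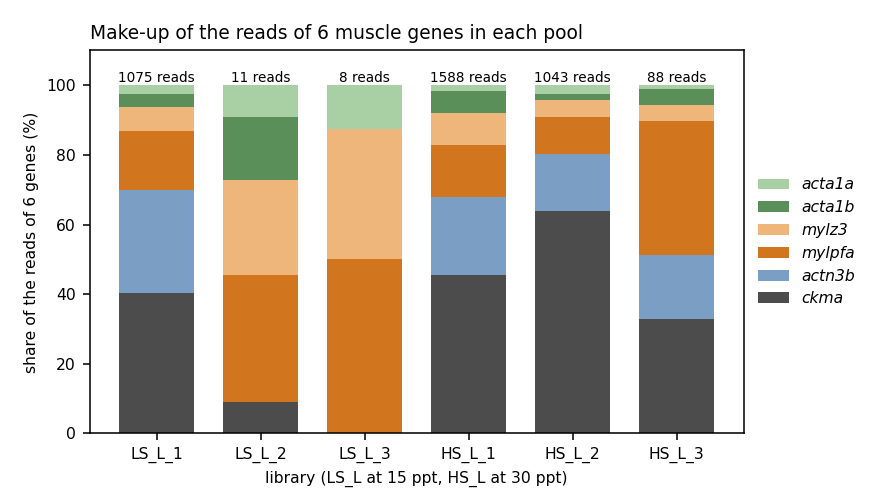
Share of the reads of 6 muscle genes taken by each gene (vertical axis, %), by library, with LS_L left of HS_L and the number of reads above each bar. The 1043 reads of HS_L_2 were 64.0% *ckma*, against 40.3% of the 1075 reads in LS_L_1, and the bars of LS_L_2 and LS_L_3 rest on 11 and 8 reads.

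None of the genes that could be tested was called between salinities. Of the 8, 5 had a mean scaled RPKM of at least 1 and entered the test (*mylz3*, *mylpfa*, *actn3b*, *ckma* and *casq1b*). Limma with Benjamini-Hochberg adjustment over all 9270 features called 0 of these 5 where a call took both an adjusted p under 0.05 and a change of more than 1 in log2, and 0.0431% of all features were called. The study, with DESeq2 on read counts, reported many more genes at the same thresholds. The fit used here is thus the stricter one, and few features of any kind were called. At an unadjusted limma p under 0.05 the count was also 0 of 5, beside 609 of the 9270 features. Limma-voom called 0 of the 5 as well, and 4 of all features.

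On the log2(scaled RPKM + 1) scale, LS_L over HS_L, the estimates were broad. The creatine kinase gene *ckma* had a log2 fold change of -2.17 (SE 1.33, 95% interval -5.35 to 1.00, limma with Benjamini-Hochberg adjusted p = 0.857). The light chain *mylpfa* had -1.35 (SE 0.85, interval -3.38 to 0.68, limma adjusted p = 0.868), and *mylz3* had -0.90 (SE 0.78, interval -2.75 to 0.94, limma adjusted p = 0.910). Each interval includes no change as well as a difference of several-fold.

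The Z-disc gene *actn3b* had a log2 fold change of -0.79 (SE 0.77, interval -2.61 to 1.03, limma adjusted p = 0.930). The calcium-store gene *casq1b* had 0.18 (SE 0.31, interval -0.55 to 0.91, limma adjusted p = 0.963), and it was the one estimate above 0 and the most precise. The pseudocount shrinks folds of genes this low, and with a pseudocount of 0.1 the estimates were -3.98 for *ckma*, -2.43 for *mylpfa*, -2.26 for *actn3b* and -1.61 for *mylz3*. None of the 5 was called then either.

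The genes *ttn.1*, *acta1b* and *acta1a* had means of 0.033, 0.937 and 0.444 scaled RPKM and could be fitted only with the minimum lifted, over 21231 features. Their log2 fold changes were then -0.03 (SE 0.03) for *ttn.1*, -0.62 (SE 0.54) for *acta1b* and -0.31 (SE 0.32) for *acta1a*, each with a limma Benjamini-Hochberg adjusted p of 0.893. For *ttn.1*, at 0.023 ± 0.009 scaled RPKM in LS_L and 0.043 ± 0.031 in HS_L (SD, n = 3 each), the pseudocount of 1 leaves almost no room for a fold to show.

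**Figure D3:**
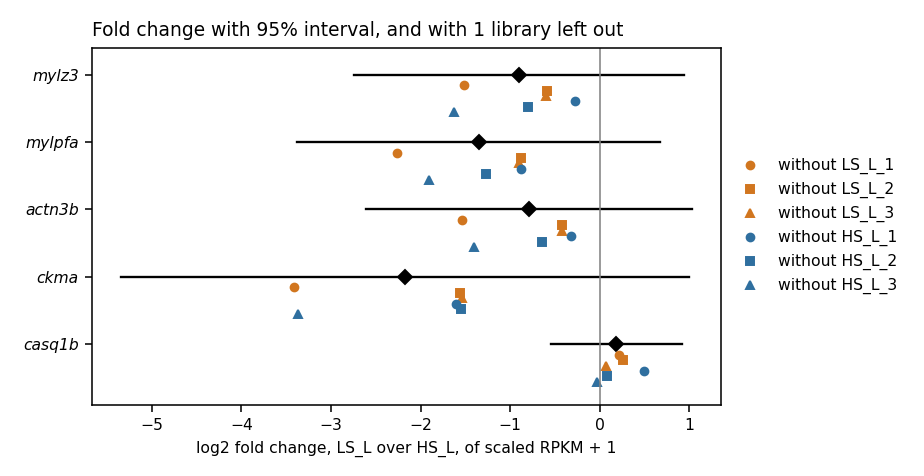
Log2 fold change of scaled RPKM + 1, LS_L over HS_L (horizontal axis), for the 5 genes tested. Black diamonds and lines are the estimates with 95% intervals (n = 3 libraries per group), and colored symbols are the estimates with 1 library left out. All 5 intervals include 0, and the estimates of *ckma* lie between -3.42 and -1.54 when a library is left out.

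The libraries of a group scattered widely in 4 of the 5 genes. The pooled within-group SD of log2(scaled RPKM + 1) was 2.11 for *ckma*, 1.34 for *mylpfa*, 1.22 for *mylz3* and 1.2 for *actn3b*, whereas the median over the 9270 features was 0.32. At least 97.4% of the features had a smaller SD than each of these 4 genes. For *casq1b* the SD was 0.42, and 66.4% of the features had a smaller one.

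In none of the 8 genes did the 3 LS_L libraries lie apart from the 3 HS_L libraries, whereas 12.7% of the tested features had groups that did not overlap. LS_L_1 mattered most for that count. Without it, LS_L_2 and LS_L_3 were below every HS_L library for *mylz3*, *mylpfa*, *acta1b*, *actn3b* and *ckma*, 5 of 8. Counted in either direction it was also 5 of 8, beside 26.2% of the tested features on the same libraries. All shares of features in this paragraph count either direction, and *acta1b*, *acta1a* and *ttn.1* were not among the tested features. Without HS_L_3, 3 genes did not overlap (*ttn.1*, *ckma* and *acta1a*, each lower in LS_L, background 22.4%). Without HS_L_1, 1 gene did not (*casq1b*, higher in LS_L, background 26.4%). With LS_L_2, LS_L_3 or HS_L_2 left out the count stayed at 0 of 8, beside backgrounds of 19.9%, 17.5% and 22.2%.

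Compared within same-numbered pools, 5 of the 8 genes (*mylz3*, *mylpfa*, *acta1b*, *actn3b* and *ckma*) had fewer normalized reads in LS_L than in HS_L in each of the 3 pairs, as did 12.8% of the tested features, while *acta1a*, *ttn.1* and *casq1b* did not. With the replicate number as a block, the SE of *mylpfa* was 0.40 in place of 0.85, and its limma p was 0.020 unadjusted and 0.534 after Benjamini-Hochberg adjustment. For *mylz3* the blocked SE was 0.35, with a limma p of 0.047 unadjusted and 0.588 after the same adjustment. With the block, 785 of the 9270 features had an unadjusted limma p under 0.05. None of the 5 genes that entered the test was called with the block. The pairing was taken from these data, and the labels do not say what same-numbered tanks share.

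With LS_L_1 left out, the unadjusted limma p was 0.0076 for *mylpfa*, 0.029 for *ckma* and 0.048 for *actn3b*, with log2 fold changes of -2.27, -3.42 and -1.53. None passed the Benjamini-Hochberg adjustment over all features in limma, where the adjusted p was 0.421, 0.582 and 0.656. Of the 9270 features, 695 were under 0.05 unadjusted without LS_L_1, and 588 without HS_L_3. Without HS_L_3, *ckma* alone of the tested genes was under 0.05. It had a log2 fold change of -3.37 at a limma p of 0.031 unadjusted and 0.763 adjusted. *casq1b* had a log2 fold change of -0.028 without HS_L_3, so its direction rests on that pool. There is no reason in the labels to leave out either pool.

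Other skeletal muscle genes were taken from 5 lists written for this tissue: sarcomere, troponin and tropomyosin, calcium store and excitation, energy metabolism, and regulation and turnover. Without the 8 genes, 209 features of 120 genes were matched by symbol, 112 had at least 1 read, and 36 reached the minimum level. Many features without a read, such as the *tpm1* transcripts, overlap other transcripts on the same strand. Reads in shared stretches were not counted, so 0 reads there does not show that the gene was silent. No fast myosin heavy chain or fast troponin was among the matches, since genes without a symbol in the annotation could not be matched. Limma called 0 of the 36 after Benjamini-Hochberg adjustment, and limma-voom called 0. Before adjustment 3 of the 36 were under 0.05 in limma, beside 609 of the 9270 tested features. The 3 were *fabp3*, *trim54* and *asb5a*, the last named by position and picked afterwards. *asb5a* had 0.07, 0.25 and 0.24 scaled RPKM in LS_L, against 0.87, 3.51 and 1.57 in HS_L. Its log2 fold change of -1.24 had a limma p of 0.0084 unadjusted and 0.563 adjusted. The study listed this transcript among its differentially expressed genes, as lower in LS_L. The log2 fold change was above 0 in 18 and below 0 in 18, with a median of -0.01 beside 0.03 over all tested features.

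Most of the listed genes that reached the minimum level are also used outside muscle, and 26 of the 209 features had at least 1 scaled RPKM in every library. In the sarcomere list the highest were *cfl2*, a cofilin that severs actin filaments, *capzb*, which caps their ends, *actn2b* (2 transcripts), an alpha-actinin, and *pdlim7*, a Z-disc and cytoskeletal adaptor. The level of *cfl2* was 69.7, 90.2 and 114.0 scaled RPKM in LS_L, against 53.7, 65.6 and 80.7 in HS_L. For *capzb* it was 38.3, 20.7 and 24.3 in LS_L, against 29.0, 10.4 and 19.0 in HS_L. Neither these nor *actn2b* had the order of the creatine kinase and light chain genes across pools, and *pdlim7* had it within a range of 2.30 to 3.38 in LS_L and 2.32 to 3.24 in HS_L.

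Only 5 genes of the thin filament switch were matched, and no fast skeletal troponin was among them, so the fast form was not covered. Of the troponin and tropomyosin list, *tpm3*, a tropomyosin made in many cells, had 8.3, 7.57 and 8.8 scaled RPKM in LS_L, against 6.0, 9.21 and 8.45 in HS_L. The slow and cardiac troponin C gene *tnnc1a* had 1.89, 1.27 and 0.82 in LS_L, against 3.01, 0.65 and 1.18 in HS_L. The troponin T genes *tnnt1* (slow muscle) and *tnnt2a* (heart) stayed under 1.62 and 0.16 in every library, as did a second *tpm3* transcript at no more than 0.102. None of these transcripts had its 3 highest levels in LS_L_1, HS_L_1 and HS_L_2.

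The 5 most abundant genes of the calcium store list did not have the order of the light chains. The triad membrane gene *sypl2b* had 37.6, 33.7 and 44.8 scaled RPKM in LS_L, against 29.4, 25.3 and 34.2 in HS_L. The excitation-contraction coupling gene *stac3* had 3.77, 16.4 and 18.4 in LS_L, against 3.56, 0.11 and 16.0 in HS_L, with the 2 pools lowest in muscle reads, LS_L_2 and LS_L_3, the highest. The level of *asph*, whose locus also encodes junctin, was 2.09 to 3.32 in LS_L and 1.94 to 7.01 in HS_L. The kinase of the neuromuscular junction *musk* had 1.15 to 2.15 in LS_L and 0.89 to 1.69 in HS_L, and the calcium release channel *ryr3* 0.49 to 2.4 in LS_L and 0.04 to 1.00 in HS_L.

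In the energy list, the glycolytic genes *gapdh*, *tpi1b* and *eno3* and the aminotransferase gene *got1*, which the liver uses too, were abundant in all pools. *gapdh* had 1079, 3480 and 4159 scaled RPKM in LS_L, against 1118, 1437 and 5821 in HS_L. The fatty acid binding protein gene *fabp3* had 65.9, 271.3 and 336.1 in LS_L, against 619.9, 855.4 and 326.0 in HS_L. For *fabp3* only HS_L_3 lay in the range of the LS_L libraries, and its log2 fold change of -1.61 had a limma Benjamini-Hochberg adjusted p of 0.759.

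Of the 36 features matched to the energy list, 5 had the order of the light chains. Among its 13 tested features it was 2, beside 4.68% of all tested features. Those named here, apart from *ckmb*, were picked after their values were seen. Other listed features did not have that order, such as the aldolase gene *aldoab*, also picked afterwards. It had 11.0, 32.3 and 32.1 scaled RPKM in LS_L, against 15.4, 60.8 and 36.4 in HS_L. *ckmb*, the second muscle creatine kinase gene, had 4.71, 0.03 and 0.04 scaled RPKM in LS_L, against 5.41, 6.30 and 0.39 in HS_L. The muscle phosphoglycerate mutase gene *pgam2* had 143, 0 and 0 reads in LS_L, against 60, 43 and 2 in HS_L. The glycogen phosphorylase gene *pygma* had 104, 1 and 0 reads in LS_L, against 79, 77 and 7 in HS_L. In *ckmb*, *pgam2* and *pygma*, as in *actn3b* and *ckma*, LS_L_2 and LS_L_3 had at most 1 read each.

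The muscle phosphofructokinase gene *pfkmb* had 26, 0 and 0 reads in LS_L, against 30, 20 and 0 in HS_L, and the essential light chain gene *myl1* had 25, 1 and 1 reads in LS_L, against 30, 5 and 1 in HS_L. The light chain gene *mylpfb*, also picked afterwards, did not have the order of *mylpfa* and *mylz3*. It had 11, 0 and 0 reads in LS_L, against 22, 1 and 7 in HS_L. In all, 13 of the 209 list features had LS_L_1, HS_L_1 and HS_L_2 above the other 3 libraries. Among the 36 tested it was 4 (11.1%), beside the 4.68% of all tested features. That share does not cover features below the minimum level, where the order can rest on a few reads. The 4 tested were *pgam2*, *ckmb*, *pdlim7* and the sarcoglycan gene *sgca*, and the first of these had a log2 fold change of -0.31 and *ckmb* one of -1.14, with limma Benjamini-Hochberg adjusted p of 0.974 and 0.90.

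In the regulation list, *sgcb*, a sarcoglycan, had 10.4 to 22.1 scaled RPKM in LS_L and 10.7 to 17.7 in HS_L. The ubiquitin ligase gene *trim54* had 7.38, 5.66 and 5.59 in LS_L, against 19.2, 14.3 and 10.9 in HS_L. Its libraries did not overlap, but its log2 fold change of -1.11 had a limma p of 0.0027 unadjusted and 0.414 after Benjamini-Hochberg adjustment. The atrophy-linked ligase gene *fbxo32* had 4.24 to 15.2 in LS_L and 4.34 to 13.9 in HS_L, *mustn1a* 5.01 to 7.07 in LS_L and 3.83 to 8.50 in HS_L, and the small heat shock gene *hspb8* 5.03 to 7.51 in LS_L and 0.67 to 9.75 in HS_L.

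Heart and slow muscle genes were set beside the fast ones. The atrial light chain gene *myl7* had 19, 5 and 2 reads in LS_L, against 5, 16 and 115 in HS_L. The cardiac actin gene *actc1a* (XM_008313417.1) had 6, 6 and 2 reads in LS_L, against 23, 15 and 56 in HS_L. Both were highest in HS_L_3, the HS_L pool that was lowest in *ckma*. The study had listed this actin transcript among its differentially expressed genes, so it is not an independent choice, and like the other actins it may share reads.

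The other features among the 5 most abundant of the heart list were *gata4* (2 transcripts), a transcription factor also made outside the heart, and *myh6*, which stayed between 0.63 and 0.71 scaled RPKM in LS_L and between 0.38 and 0.87 in HS_L. Of 2 heart features tested, 0 were called by limma or limma-voom and 0 were under 0.05 before adjustment. The slow list gave *prox1a* and *prdm1a*, transcription factors with roles in many tissues, the slow troponin gene named above, and *myl13*, read in HS_L_1 only. None of the 19 features matched to the heart list and none of the 4 matched to the slow list had the order of the fast light chains.

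Smooth muscle genes were present in all pools. The smooth muscle actin gene *acta2* had 9.61, 5.33 and 4.77 scaled RPKM in LS_L, against 13.0, 4.50 and 5.84 in HS_L. The light chain gene *myl9b* had 11.5 to 19.2 in LS_L and 12.5 to 19.1 in HS_L, and the heavy chain gene *myh11b* 5.57 to 7.43 in LS_L and 4.21 to 8.01 in HS_L. The kinase gene *mylkb* had 2.38, 1.04 and 1.3 in LS_L, against 1.78, 1.55 and 1.44 in HS_L, and was the 1 feature of the smooth muscle list with the order of the fast light chains. The phosphatase inhibitor gene *ppp1r14aa* had 3.10, 5.57 and 7.30 in LS_L, against 18.7, 15.4 and 18.2 in HS_L, without overlap. Its log2 fold change of -1.60 had a limma Benjamini-Hochberg adjusted p of 0.249.

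**Figure D4:**
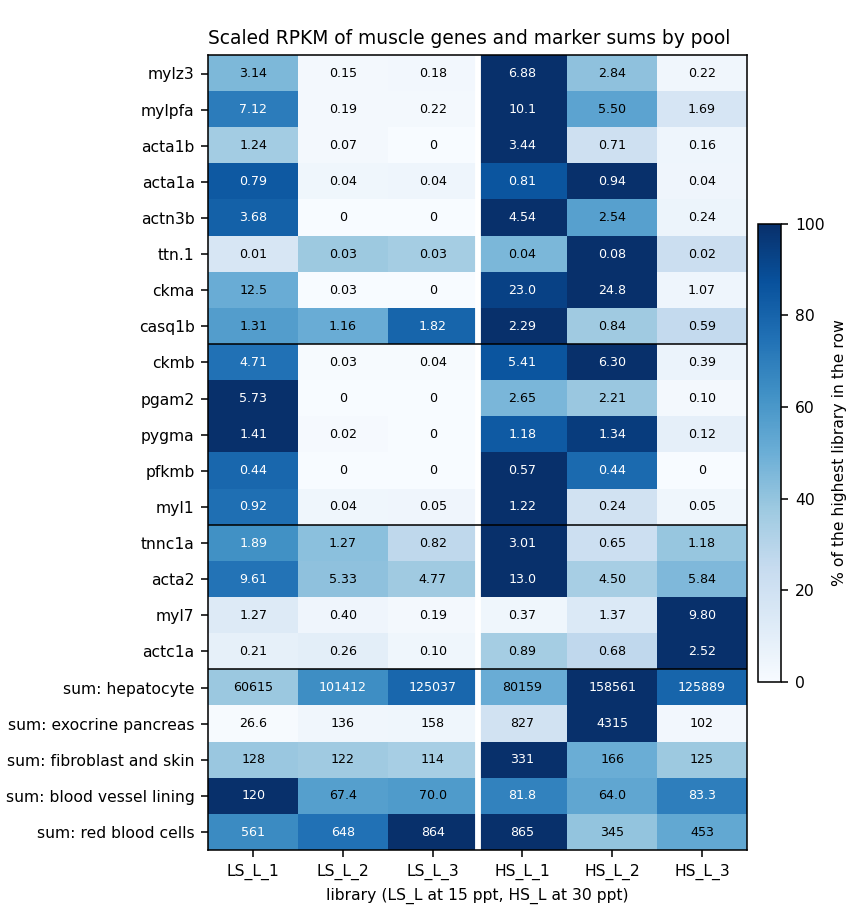
Scaled RPKM in each library (numbers in the cells), with color as the percentage of the highest library in the row and LS_L left of HS_L. Rows are the 8 genes, then 5 muscle genes picked for having the same order of pools as *ckma*. Below are 4 slow, smooth and heart muscle genes, then sums over marker lists. *myl7* and *actc1a* peak in HS_L_3, while *ckma* is at 12.5 in LS_L_1, against 23.0 in HS_L_1 and 24.8 in HS_L_2.

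Markers of other cells were set beside the muscle reads by pool. The fibroblast and skin list (18 features matched) summed to 128.1, 122.1 and 114.3 scaled RPKM in LS_L, against 331.2, 166.1 and 125.0 in HS_L. Its 3 highest pools were thus those of the light chains, though LS_L_1 lay little above HS_L_3. Of its 12 tested features, 4 had that order, beside 4.68% of all tested features. They were *col1a2*, *col1a1b*, *col1a1a* and *col5a1*, named after their values were seen. Its most abundant gene, *sparc*, a collagen-binding matrix protein, had 27.5 to 33.4 in LS_L and 26.7 to 66.3 in HS_L. These 4 collagen genes were highest in HS_L_1, as were *mylz3*, *mylpfa*, *acta1b* and *actn3b*, whereas *col6a3* was highest in LS_L_2 and *col6a2* in HS_L_2. The part of connective tissue in the muscle values was not tested.

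The blood vessel lining list (19 features) summed to 119.7, 67.4 and 70.0 scaled RPKM in LS_L, against 81.8, 64.0 and 83.3 in HS_L, led by *plvapa*, a protein of endothelial openings, at 36.4 to 74.5 in LS_L and 33.9 to 45.5 in HS_L. The red blood cell list (13 features) summed to 561.4, 647.5 and 864.3 in LS_L, against 865.3, 344.8 and 452.9 in HS_L, led by the globin gene *hbae5*. Unlike the fibroblast and skin list, neither of these lists, nor the hepatocyte list led by *apoa1b*, had LS_L_1, HS_L_1 and HS_L_2 as its 3 highest pools.

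The exocrine pancreas list (8 features, all with reads) was led by the trypsinogen gene *prss1*. It held enzyme genes and the transcription factor genes *ptf1a* and *rbpjl*. Its sum was lowest in LS_L_1 (26.6) and highest in HS_L_2 (4315), although *actn3b* had 264 and 182.4 normalized reads in these libraries. Of the pools with many muscle reads, LS_L_1 was thus the lowest in the pancreas list, whereas HS_L_2 and HS_L_1 (826.7) were the highest. The pools with few muscle reads, LS_L_2, LS_L_3 and HS_L_3, lay between, at 136.1, 157.7 and 102.4. The part of pancreas in the muscle values was not tested. *prss1* itself had 9.09, 53.0 and 62.3 scaled RPKM in LS_L, against 501.9, 2291 and 30.2 in HS_L.

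Features most like the mean profile of the 8 genes were searched among all tested features, as a description over 6 libraries. The 10 closest had a Pearson correlation of 0.96 to 0.98: *irf8*, *LOC103377754*, *stag1a*, *LOC103377302*, *amn1*, *LOC103383694*, *LOC103390043*, *LOC103382162*, *ckmb* and *ripor2*. Of these, *ckmb* was the only one in the muscle lists. The closest, *irf8*, named by position, had 5.98, 2.11 and 2.1 scaled RPKM in LS_L, against 7.94, 5.59 and 2.57 in HS_L. In the 9 other than *ckmb* the highest library was between 1.51 and 6.55 times the lowest, a far smaller range than in *mylz3*, and none of the 10 was called by limma.

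Of the 8 genes, 3 (*acta1b*, *casq1b* and *ttn.1*) also appear in the deposited lists of transcript starts, ends and splicing events, which give the FPKM of transcripts assembled in each library. For *acta1b* the listed start had 0.93 FPKM in LS_L_1 and 0 in LS_L_2 and LS_L_3, against 2.76, 0.22 and 0.09 in HS_L_1, HS_L_2 and HS_L_3. This is the same order of pools as in its reads. For *ttn.1* the listed start had 0.011 to 0.021 FPKM in LS_L and 0.012 to 0.049 in HS_L, and a retained intron was listed in LS_L_2, HS_L_1 and HS_L_3. For *casq1b* retained introns were listed in LS_L_1, LS_L_2 and HS_L_1. It had 17 listed events in HS_L_1, against 2 to 5 in each other library.

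The calsequestrin gene also had starts listed upstream. At the annotated first exon (chromosome 1, 20606916 to 20607321) *casq1b* had 0.90, 0.51 and 0.46 FPKM in LS_L, against 1.28, 0.19 and 0.44 in HS_L. Upstream first exons lay at 20612824 to 20612875 in LS_L_2 and 20612672 to 20612714 in LS_L_3, against 20612824 to 20612874 in HS_L_1, where no counted feature is annotated. The exon of LS_L_3 does not overlap that of LS_L_2 and HS_L_1, so these are not 1 start. The upstream exon began 5554 bases before the annotated transcript in LS_L_2 and 5393 bases before it in LS_L_3, against 5553 in HS_L_1.

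The upstream starts of *casq1b* had 0.48 FPKM in LS_L_2 and 0.87 in LS_L_3, against 0.61 in HS_L_1. They held 48.5% and 65.4% of the FPKM over listed starts in LS_L_2 and LS_L_3, against 32.1% in HS_L_1. None was listed for LS_L_1, HS_L_2 and HS_L_3. Listed starts may not cover every assembled transcript. In LS_L_1 the listed starts had 0.90 FPKM and the listed ends 1.49, and in HS_L_2 these were 0.19 and 0.63. In HS_L_1 the starts were the higher, at 1.89 against 1.28. The share in LS_L_3 belongs to the exon listed in that library only. The 2 libraries with the largest upstream shares were those with 11 and 8 reads of the contractile and creatine kinase genes. The number of reads behind an assembled start is unknown, so no interval could be given, and the difference between salinities was not tested.

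**Figure D5:**
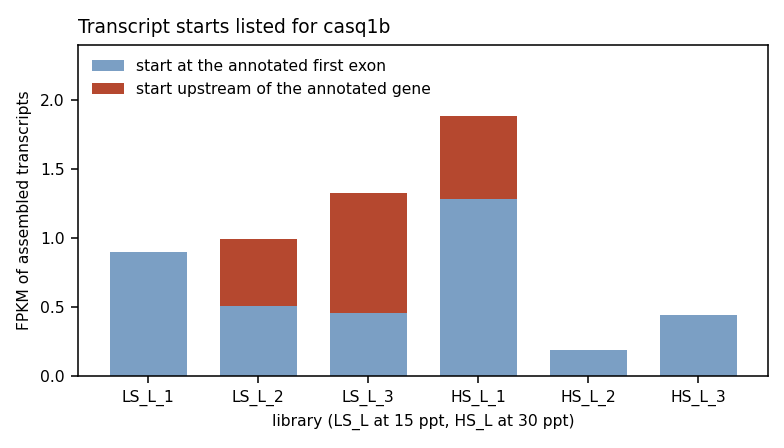
FPKM at the listed starts of assembled *casq1b* transcripts (vertical axis, from 0) by library, with LS_L left of HS_L. The listed starts are split into the start at the annotated first exon (blue) and any start upstream of it (red). An upstream start is listed in LS_L_2 (0.48), LS_L_3 (0.87, at a separate exon) and HS_L_1 (0.61) and in no other library.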

How the data were processed

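Liver RNA of 6 tank pools was sequenced as paired reads. The authors aligned clean reads with TopHat2 (2.0, Bowtie2 2.0.6 in the submitters' processing notes), dropped reads mapping to several places and counted per feature with HTSeq in union mode, so reads shared by overlapping transcripts were lost. The authors deposited RPKM per library, a signal per group (mean reads over size factors) and, per library, FPKM of assembled transcripts carrying start, end and splicing events, whose tool is not given in the sources used here. Strand use in counting is not given either.

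Reads were recovered from RPKM and transcript length: 99.7% to 99.9% of values came out whole (tolerance 0.1). Size factors are medians of ratios. Limma 3.58.1 (R 4.3.3; lmFit, eBayes with trend and robust) was fitted to log2(scaled RPKM + 1) for features averaging 1 or more, without covariates. A feature was called when its Benjamini-Hochberg adjusted p was below 0.05 and its log2 fold change exceeded 1 in size. The code was tested on simulated data. Tables and figures used matplotlib 3.10.9, scipy 1.17.1, numpy 2.4.6 and pandas 2.3.3 in Python 3.11.15.

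Gene symbols came from RefSeq (Cse_v1.0, the build of the files) by accession (20016 features), position overlap of at least 0.5 of the length (13209) or symbol (182), and 1344 had none. Named genes were the 8 genes, the 5 most abundant other features of each muscle list, the 10 features most like the mean profile, and the most abundant feature of each other marker list. Any gene beyond these was picked with its values in view. The 8 genes and the lists were chosen with earlier results of these data known. The fit was repeated with a replicate block, limma-voom, TMM factors, scaling by library size, a pseudocount of 0.1, no minimum, a minimum of 10 reads per library, the 20 features with most reads removed, and each library left out.

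After group means were subtracted, same-numbered LS_L and HS_L libraries correlated at 0.174, 0.166 and 0.231 over 9270 features, and by this the replicate numbers were treated as pairs. Some libraries with different numbers correlated about as closely (LS_L_3 with HS_L_2 at 0.220, LS_L_2 with HS_L_1 at 0.163, LS_L_1 with HS_L_3 at 0.122), and the other 3 combinations lay between -0.455 and -0.273. The labels do not say what a number shares. Each library is a pool of 1 tank, so p-values measure the spread between tanks.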

Additional observations from a re-analysis of the deposited data

Results flagged for a closer look

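The upstream transcript starts of *casq1b* lie in the event lists, outside the expression table that the comparisons rest on. In LS_L_3 an upstream start had 0.871 FPKM, above the 0.605 FPKM of HS_L_1, the one HS_L library that lists one. The exons of these libraries do not overlap, so the values belong to separate starts. LS_L_2 had 0.482 FPKM, below HS_L_1. The groups of 3 libraries were too small for a check of single outlying pools.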

How the results depend on the processing

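None of the 5 tested muscle genes, and none of the muscle list features, passed both thresholds under any of the 14 alternatives in which they could be fitted. The number of called features in the whole table was 4, against 10 with library size only, 1 without a minimum level, 7 with at least 10 reads in every library and 0 with the replicate block, and it ranged from 0 to 17 when 1 library was left out (17 without LS_L_1). The study reported many more at the same thresholds with DESeq2. With the replicate block the unadjusted limma p was 0.020 for *mylpfa* and 0.047 for *mylz3*, at Benjamini-Hochberg adjusted p of 0.534 and 0.588. In that fit 785 of the 9270 features were under 0.05 unadjusted, and the block changed no call of a muscle gene. The number of the 8 genes whose groups did not overlap stayed at 0 with TMM factors and with library size only, and was 0 to 5 when 1 library was left out, an alternative chosen after seeing the data (5 without LS_L_1, 3 without HS_L_3, 1 without HS_L_1). The log2 fold change of *casq1b* was 0.18 with all libraries and -0.028 to 0.50 with 1 left out, the lowest being without HS_L_3. By limma-voom the log2 fold changes were -4.92 for *ckma*, -4.37 for *actn3b*, -2.55 for *mylpfa* and -1.72 for *mylz3*, and the adjusted p over all alternatives ran from 0.421 to 0.999. With at least 10 reads in every library only *casq1b* and *ttn.1* were kept. Depth limited the low pools: for a gene without a read in LS_L_2 or LS_L_3, folds were taken at a floor of 3 reads. How low such a gene lies there is not known.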
